A study of Mus musculus and Oryctolagus cuniculus and Sus scrofa with 20 samples.

Results

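The adult pig testis library was compared with the rabbit testis library of postnatal day 180, 2 of the 20 small RNA libraries of a study of male germ cells and testes in mouse, rabbit, pig and rat. Both were chosen by their labels alone, and there was 1 library a side. Both are from wild type, untreated males, and both started from total RNA of whole testes, made into Illumina small RNA libraries and read on a HiSeq 2000. The age of the pig is not given beyond adult. Exogenous spike-in RNA, of a sequence not given in the sources used here, had been added to the rabbit sample and not to the pig one. How many animals gave RNA to each library is not given in the sources used here. Species, age, library and handling cannot be told apart in this design, so differences are given with no test, and their intervals cover counting error only. The pig library held 13045778 reads of 415959 distinct sequences, and the rabbit library 9615771 reads of 1672868. The rabbit day 110 library and the adult rat testis library are given beside them for scale.

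Testes make several kinds of small RNA. A miRNA is cut from a hairpin and pairs with target mRNAs mainly through its seed, bases 2 to 8. A piRNA binds a PIWI protein, is longer than a miRNA and mostly begins with U. Late spermatocytes and round spermatids are known for abundant piRNAs and for miRNAs of the miR-34 and miR-449 family, while fibroblasts, muscle-like peritubular cells and other stroma are known for miRNAs such as miR-10b, miR-99a and miR-21. Fragments of tRNA and rRNA come from processing, from regulated cleavage or from decay of abundant RNAs.

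The miRNAs on which the comparison turns are shown as the mouse mature sequences of RefSeq (GRCm38.p6), with the seed in capitals. No pig or rabbit miRNA table was used here, so reads of both species were matched to these. The germ cell set and the stromal set each share seeds within the set, and the epithelial set has a pair of seeds.
miR-34a-5p (chr4:150068473-150068494, plus strand): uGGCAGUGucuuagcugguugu
miR-34b-5p (chr9:51103610-51103632, minus strand): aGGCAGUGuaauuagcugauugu
miR-449a-5p (chr13:113037549-113037570, plus strand): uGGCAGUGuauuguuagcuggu
miR-99a-5p (chr16:77598940-77598961, plus strand): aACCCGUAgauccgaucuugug
miR-100-5p (chr9:41531437-41531458, plus strand): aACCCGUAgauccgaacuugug
miR-10b-5p (chr2:74726074-74726096, plus strand): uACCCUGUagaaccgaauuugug
miR-10a-5p (chr11:96317186-96317208, plus strand): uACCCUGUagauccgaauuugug
miR-200a-3p (chr4:156054911-156054932, minus strand): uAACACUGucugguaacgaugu
miR-141-3p (chr6:124717917-124717938, minus strand): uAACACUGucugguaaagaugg
miR-200b-3p (chr4:156055685-156055706, minus strand): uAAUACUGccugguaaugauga
miR-200c-3p (chr6:124718324-124718346, minus strand): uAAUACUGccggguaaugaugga
miR-34a, miR-34b-5p and miR-449a share the seed GGCAGUG with the 5′ arm of Mir34c (chr9:51103076-51103098, minus strand), which was counted from its hairpin. miR-99a and miR-100 share ACCCGUA. miR-10a and miR-10b share ACCCUGU. miR-200a shares AACACUG with miR-141, and miR-200b shares AAUACUG with miR-200c.

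Leading tags of 3 named kinds are shown next, as DNA letters from the deposited read lists: reads with the 5.8S start and tRNA fragments, because single tags hold much of these classes, and unclassed piRNA-sized reads, as examples of a class spread over many sequences. In the first set the capitals mark 13 nt known as the start of 5.8S rRNA, and the lower case letters before them are not part of that start.
pig, leading tag of 17 to 18 nt: acgtaCGACTCTTAGCGG
rabbit, leading tag of 17 to 18 nt: tcgtaCGACTCTTAGCGG
both libraries, a tag shorter by the first base: cgtaCGACTCTTAGCGG
most abundant pig tag that runs at least 12 nt on into 5.8S (49 reads): taCGACTCTTAGCGGtggatcactcggctc
In the second set the capitals mark the A box, an internal promoter motif of tRNA genes, in the leading 5′ tRNA fragments.
pig, tRNA-Gly type: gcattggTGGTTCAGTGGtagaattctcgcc
rabbit, tRNA-Gly type: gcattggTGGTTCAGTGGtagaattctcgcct
pig, tRNA-Glu type: tcccacaTGGTCTAGCGGttaggattcct
rabbit, tRNA-Glu type: tcccataTGGTCTAGCGGttaggattcct
In the last set the capitals mark bases 1 and 10 of the leading unclassed tags of 25 to 32 nt.
pig, first: TtgctgtgaTgactaacttaggacacctt
pig, second: TgaagcatcGatttgaattccaaggacact
rabbit, first: CacaagacaGctagttcgtgggacgactgc
rabbit, second: GataaaaacCatgtctcggaattcagatt
No pig or rabbit genome was used here, so these tags have no coordinates.

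The 2 libraries differed in shape before any RNA was named. Distinct sequences came to 31.9 per 1000 reads in pig and to 174 per 1000 in rabbit. The 10 most abundant tags took 35.8% of the pig reads and 7.23% of the rabbit reads. The pig reads were spread over short, miRNA-sized and piRNA-sized lengths, whereas the rabbit reads were mostly piRNA-sized. Reads of 18 nt made up 14.8% of the pig library and 1.09% of the rabbit library, and reads of 22 nt 14.8% and 5.34%. Reads of 30 nt made up 5.28% of the pig library and 19.5% of the rabbit library.

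**Figure D1:**
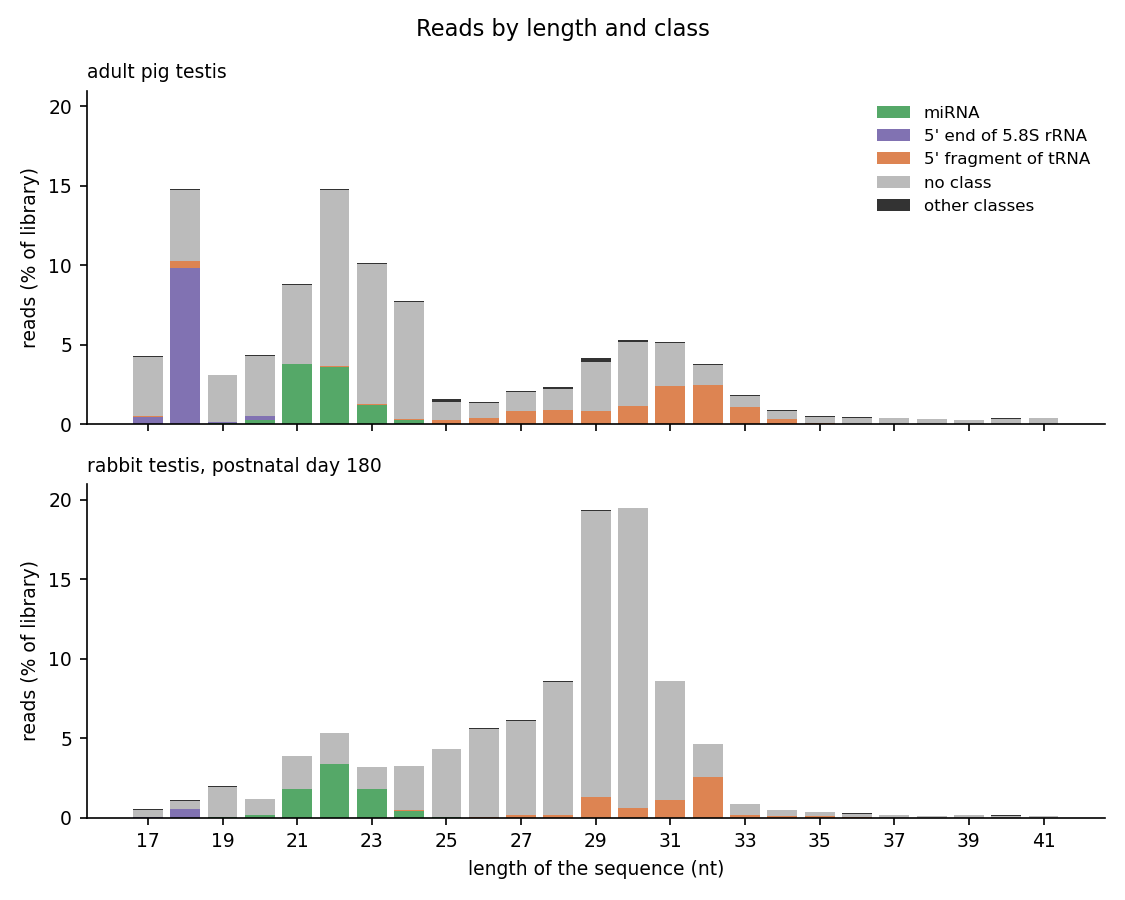
Reads by length (x axis, nt) as a percent of each library (y axis), stacked by class, in adult pig testis (top) and rabbit testis of day 180 (bottom). The pig bars are highest at 18 and 22 nt (14.8% each), and the rabbit bars at 29 and 30 nt (19.3% and 19.5%), where nearly all reads have no class. Pig reads over 41 nt (0.637%) are not drawn.

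Reads of 17 to 18 nt, the shortest in the files, made up 19.05% of the pig library (2484579 reads) and 1.62% of the rabbit day 180 library (155689 reads), an 11.8-fold difference in share. The share was 1.87% at rabbit day 110, 2.95% to 3.78% in the rabbit libraries of days 10 to 90 and 0.627% in rat, so all 8 rabbit libraries and the rat library lay below pig. In pig, 53.9% of these short reads held the 13 nt of the 5.8S start, and in rabbit 34.4%. tRNA fragments found by the A box were 2.51% of them in pig and 1.34% in rabbit, and a tRNA piece too short to hold that motif is not among these. Reads of 18 nt that equal the start of a miRNA were 0.204% and 0.866%, and reads of 17 nt that equal the first 17 nt of one, which were not counted as miRNA, a further 0.0662% and 0.295%. With these set apart too, 42.8% of the short reads in pig and 61.8% in rabbit had no class.

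A single tag carried much of the pig value. The 18 nt tag with the lead acgta had 1241812 reads in pig, which is 9.52% of all pig reads and 50.0% of the short ones, and 29 reads in rabbit. The tag with the lead tcgta had 49951 reads in rabbit, 32.1% of the short ones, and 284 in pig. Thus each library was led by the same 13 nt behind a lead that differed, and each lead was scarce in the other library. The 17 nt form without the first base had 57302 reads in pig and 3158 in rabbit. A further 17 nt tag, gcccggatgatcctcag, was present in all 20 libraries, with 109080 reads in pig (0.836% of all reads) and 2306 in rabbit (0.0240%). It does not hold the A box as searched and was left with no class, and its source was not tested.

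Short reads can be the remains of longer molecules, so each was looked up at the ends of the longer tags of its own library. In pig, 88.3% of the short reads equalled both the 5′ end of some longer tag and the 3′ end of another. In rabbit, 74.5% did. Reads that matched a 3′ end alone were 6.84% and 7.53%, a 5′ end alone 1.11% and 7.14%, and neither end 3.74% and 10.8%. The match of a very abundant tag can rest on few longer reads, so these shares describe sequence overlap and not a count of source molecules.

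Over all lengths, reads with the 13 nt of the 5.8S start numbered 1408898 in pig (10.8%) and 57466 in rabbit (0.598%). They were 0.810% at rabbit day 110, 2.08% to 2.95% at rabbit days 10 to 90 and 0.0429% in rat. In both libraries these reads stopped where the 13 nt stop, in 99.9% of them in pig and 96.5% in rabbit. A lead of 4 or 5 nt preceded the 13 nt in 95% in pig and 93.7% in rabbit. Reads that ran on into at least 12 nt of the reference 5.8S were 0.0361% of them in pig and 2.37% in rabbit, so the name rests on few longer reads in pig. The 13 nt were set as the end of the leading pig tag of 17 to 18 nt. That tag holds 88.1% of the pig reads with the 5.8S start. Its end and its lead were thus fixed by how the class was set, and the pig shares for both follow from that choice. The 13 nt were also picked for their abundance in pig. The larger pig share of this class, among all reads, short reads and rRNA reads, thus rests in part on that choice. Where the lead comes from was not tested.

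Other rRNA pieces were also a larger share in pig. The 18S rRNA, of the small ribosomal subunit, gave 66542 reads in pig (0.510%) and 7347 in rabbit (0.0764%). The 5S rRNA, of the large subunit, gave 56701 (0.435%) and 2314 (0.0241%). The leading pig tags, an 18S piece and a 5S piece, are shown because they carried 36.3% and 29.7% of their class in pig.
18S: agccgcctggataccgcagctaggaataa
5S: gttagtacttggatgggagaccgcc
The 18S piece had 24180 reads in pig and 122 in rabbit, and the 5S piece 16847 and 155. In all, rRNA made up 11.7% of pig reads and 0.700% of rabbit reads, a 16.8-fold difference in share. Without the 5.8S reads the ratio was 10.3. Fragments of small nuclear RNAs were 0.107% and 0.0488%. The 18S and 5S were matched to mouse entries, and a base that differs in pig or rabbit leaves a read uncounted. The part of RNA quality in these shares was not tested.

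Reads of 19 to 24 nt with no class were the largest group of the pig library. They made up 38.9% of it (5074027 reads) and 11.1% of the rabbit library (1062647 reads). Only 6.195% of these pig reads had a sequence seen in any of the other 19 libraries, against 80.3% of the rabbit ones. For rabbit those 19 include 7 other rabbit libraries, and for pig no other pig library. Of the rabbit reads, 19.8% had a sequence seen in a library of another species. The pig reads were piled on few sequences. When unclassed tags of 17 to 24 nt were joined by their last 14 nt, the leading pig group held 1750775 reads (13.4% of the library) in 367 tags, 99.8% of them beginning with T, and no read in the other 19 libraries. The next held 729639 reads (5.59%), of which 17.3% began with T. The first 10 groups held 30.3% of the pig library and 2.36% of the rabbit library.

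The ends of these pig tags varied in the opposite way to a miRNA. Among the 200 most abundant unclassed pig tags of 19 to 24 nt, the median share of reads with the same 3′ end but another 5′ end was 36.8%, and with the same 5′ end but another 3′ end 0.917%. For the rabbit tags of that size the medians were 2.39% and 45.5%. For the 200 most abundant miRNA tags they were 0.891% and 79.5% in pig and 0.863% and 77.2% in rabbit. The origin of these pig sequences was not tested, and they are left unnamed.

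piRNA-sized reads, taken as 25 to 32 nt, made up 25.8% of the pig library and 76.8% of the rabbit library, with 71.1% at rabbit day 110 and 83.7% in rat. The pig share lay within the 22.9% to 39.0% of rabbit days 10 to 90. With miRNA, tRNA, rRNA and other named RNAs taken out, 2039898 pig reads (15.6%) and 6792693 rabbit reads (70.6%) remained. Set against miRNA reads, this came to 1.68 unclassed piRNA-sized reads per miRNA read in pig, 9.07 in rabbit, 6.00 at rabbit day 110 and 12.4 in rat. At rabbit days 10 to 90 it was 0.269 to 0.961, so on this measure pig lay above those libraries and below both later ones.

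The base composition of the unclassed piRNA-sized reads was much closer than their amount. Of all reads of 25 to 32 nt, 51.3% in pig and 78.7% in rabbit began with T, the DNA letter for U. Of the unclassed ones, 77.8% in pig and 82.5% in rabbit did. The tRNA fragments, most of which begin with another base, were 35.5% of the pig reads of this size and 7.77% of the rabbit ones. An A at position 10 was found in 31.6% of the unclassed T-starting reads in pig and 30.3% in rabbit, and in 32.6% and 42.02% of those that start with another base. The rabbit reads without a first T thus carried more A at position 10 than the T-starting ones, and the pig reads hardly did.

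The lengths were alike as well. The commonest length of the unclassed reads was 30 nt in both libraries, with 25.9% of them in pig and 26.7% in rabbit. Lengths of 29 to 31 nt held 62.8% and 62.9%. At 29 to 32 nt the share with a first T was 82.0% in pig and 81.6% in rabbit, and at 25 to 28 nt 67.3% and 84.1%. At 32 nt alone it was 69.7% in pig and 79.4% in rabbit, so pig was lower at both ends of the window and not at 29 and 30 nt (83.3% and 85.0% against 81.4% and 81.6%).

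Few of the unclassed piRNA-sized reads of pig and of rabbit day 180 had a sequence seen in the other of the pair. The series holds no other pig library. Of the unclassed pig reads, 3.39% had a sequence seen in rabbit day 180 and 8.95% one seen in any other library. Of the unclassed rabbit reads, 0.856% had a sequence seen in pig and 84.3% one seen in the 7 other rabbit libraries. Of the miRNA reads, the sequences were shared between pig and rabbit day 180 for 99.5% in pig and 97.7% in rabbit. The leading pig tag had 66368 reads, 0.509% of the library, and the leading rabbit tag 41165, 0.428%. All 5 leading pig tags began with T, and 3 of the 5 leading rabbit tags did. Tags read a single time made up 35.96% of the distinct pig sequences and 62.4% of the distinct rabbit ones, and the 100 most abundant held 16.5% and 9.76% of the reads.

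5′ fragments of tRNAs were found by the A box, searched on the read strand alone as TNGNNNAGNGG or TNGNNNAGNNGG (N is any base) starting at position 6 to 9 of the read. They made up 11.3% of the pig library (1475815 reads) and 6.48% of the rabbit library (623539 reads), with 7.56% at rabbit day 110 and 1.41% in rat. The same motif placed 5 nt further in was held by 0.0300% of pig reads and 0.0923% of rabbit reads, which is the background of the search. Names of tRNAs are given from general knowledge of their 5′ ends, since no nuclear tRNA table was used here. A tRNA with another A box is not counted.

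Glycine-type fragments led in both libraries and carried most of the difference. The A box TGGTTCAGTGG was in 979835 pig reads (7.51%) and 363554 rabbit reads (3.78%). The glutamate-type box TGGTCTAGCGG went the other way, with 63429 pig reads (0.486%) and 134923 rabbit reads (1.40%). The other glutamate-type box, TGGTCTAGTGG, was at 0.504% in pig and 0.484% in rabbit, so the glutamate types did not move as 1 group. The valine type TAGTGTAGTGG was at 1.12% in pig and 0.0957% in rabbit, the lysine type TAGCTCAGTCGG at 0.788% and 0.193%, and the histidine type TCGTATAGTGG at 0.427% and 0.0681%.

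The rabbit fragments were cut at few lengths and the pig ones at many. Fragments of 28 to 36 nt, the size of a tRNA cut at its anticodon loop, were 81.1% of the pig reads and 95.3% of the rabbit reads, and shorter ones 18.3% and 4.42%. Of the glycine-type reads, 66.1% in rabbit were 32 nt long and 24.6% were 31 nt long. In pig, 22.3% were 32 nt, 28.1% were 31 nt, 9.96% were 27 nt and 5.61% were 18 nt. Of the glutamate-type reads with the box TGGTCTAGCGG, 64.3% in rabbit and 22.8% in pig were 29 nt long.

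**Figure D2:**
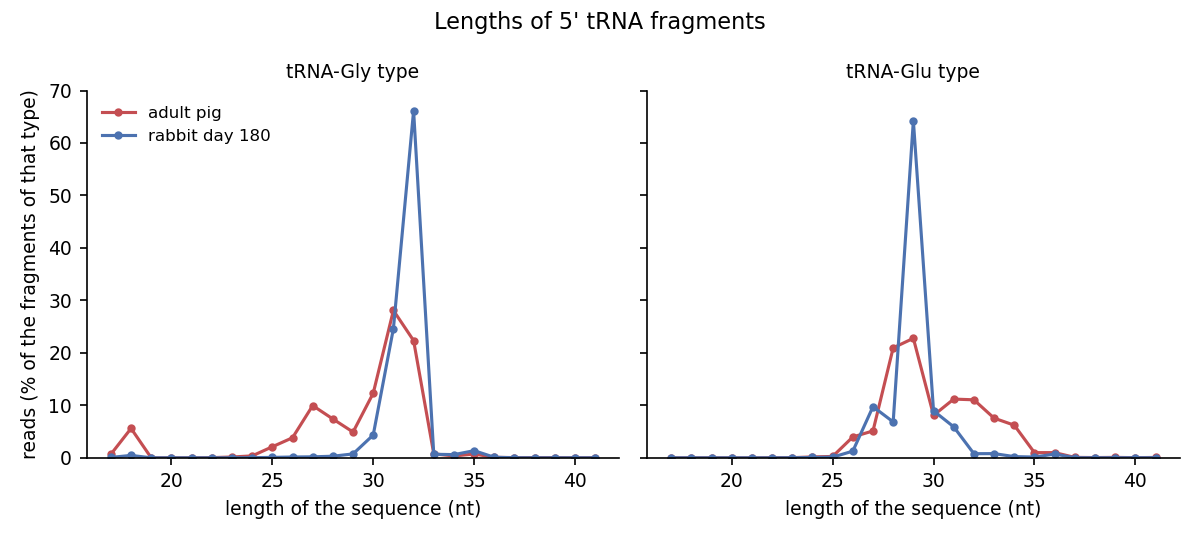
Length (x axis, nt) of 5′ fragments of the tRNA-Gly type (left, A box TGGTTCAGTGG) and the tRNA-Glu type (right, A box TGGTCTAGCGG), as a percent of the fragments of that type in each library (y axis), in adult pig (red) and rabbit day 180 (blue). The rabbit lines have a single high point, 66.1% at 32 nt and 64.3% at 29 nt, and the pig lines reach 28.1% and 22.8%, with further rises at 27 and 18 nt in the tRNA-Gly type.

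miRNAs took a like share of both libraries, 9.33% in pig (1217824 reads) and 7.79% in rabbit (749323 reads). The share was 10.7% at rabbit day 110, above pig, and 6.62% in rat, so no order between pig and late rabbit testis follows from it. The rabbit libraries of days 10 to 90 had 35.8% to 53.4%. A few miRNAs dominated both libraries. miR-99a-5p was 36.7% of miRNA reads in pig (446894 reads) and 17.1% in rabbit (128189 reads). miR-10b-5p was 18.6% (226858 reads) and 8.24% (61733 reads). Together they were 55.3% of the pig miRNA reads and 25.3% of the rabbit ones. Of the 10 most abundant miRNAs of each library, 8 were shared, and those 10 held 79.2% of miRNA reads in pig and 67.3% in rabbit. miR-21a-5p, common in stroma and activated cells, was at 5.39% and 2.16%, and miR-26a-5p, a broadly expressed miRNA, at 3.52% and 8.29%.

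Levels were compared as reads per 1000000 miRNA reads over the 138 miRNAs with at least 100 reads in either library. At 4-fold, 7 (5.07%) were higher in pig and 35 (25.4%) lower, 42 of 138 in all (30.4%). The median log2 ratio of pig to rabbit was -0.61, and the median size of the ratio 1.43 on the log2 scale. The same rule between rabbit days 110 and 180 called 2 of 140 (1.43%), miR-146a-5p and miR-146b-5p, both higher at day 110, and 0 lower. The split into higher and lower depended on the scaling. Scaled to all reads, 14 were higher and 29 lower. With the trimmed mean of M values (edgeR) or the median of ratios (DESeq2), 21 were higher and 23 lower. These scalings raised every pig ratio by 0.26, 0.67 (edgeR) and 0.59 (DESeq2) on the log2 scale, and the median log2 ratio became -0.34, 0.07 and -0.02. Of the 138 miRNAs, 84 were below 0 as reported and 79, 67 and 72 under these scalings. The split also depended on the matching: where the whole read had to equal the mouse sequence, 20 were higher and 14 lower of 91 counted. The pig levels ranked with those of rabbit across these miRNAs with a Spearman rho of 0.708, against 0.977 between the rabbit days, as a description over miRNAs that share a library.

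**Figure D3:**
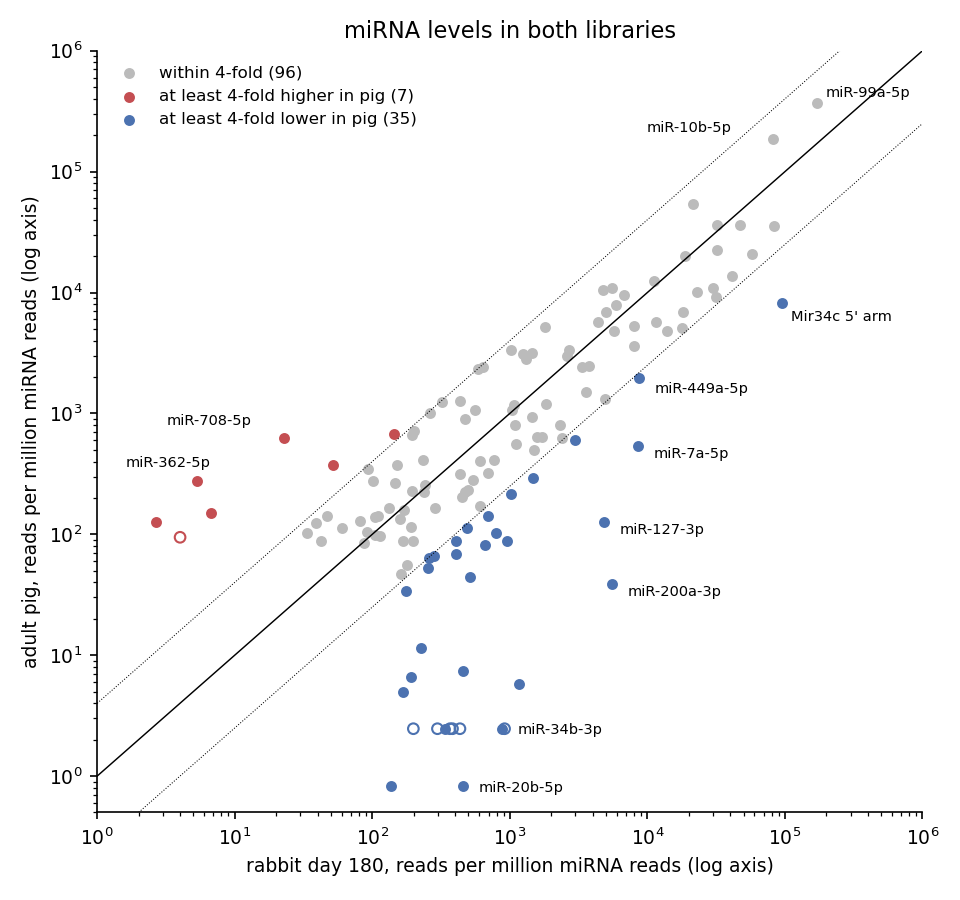
Reads per 1000000 miRNA reads in rabbit day 180 (x axis, log) and adult pig (y axis, log) of the 138 miRNAs counted. Blue points are the 35 at least 4-fold lower in pig, red points the 7 at least 4-fold higher and grey points the 96 in between; open circles had 0 reads in 1 library and are drawn at the floor of 3 reads. The solid line marks equal levels and the dotted lines 4-fold. The 5′ arm of Mir34c is the most abundant blue point.

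The miR-34 and miR-449 family, known from late spermatocytes and spermatids, was lower in pig. Its 5 counted members, of 8 in the list and 7 in the reference, were all at least 4-fold lower, with a median log2 ratio of -3.02. The family was 1.03% of miRNA reads in pig (12602 reads) and 10.6% in rabbit (79544 reads), a 10.3-fold difference. The rabbit value was 0.0181% to 0.141% at days 10 to 90 and 5.67% at day 110, and the rat value was 41.3%. In isolated mouse cells it was 19.4% at the pachytene stage, 26.9% for round spermatids and 1.93% for sperm. From pre-leptotene to zygotene cells it was 0.0169% to 0.150%. In cultured mouse spermatogonial stem cells, knockout lines included, it was 0.277% to 0.623%. The pig share thus lay above every rabbit library up to day 90 and below both later ones, and below rat. In whole tissue, fewer cells of a type and less RNA per cell cannot be told apart.

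The 5′ arm of Mir34c set the sum, with 10060 reads in pig (0.826% of miRNA reads) and 71789 in rabbit (9.58%), a log2 ratio of -3.54 (95% counting interval -3.57 to -3.51). miR-449a-5p had 2398 and 6473 reads (log2 ratio -2.13), miR-34a-5p 99 and 493 (-3.02) and miR-34b-5p 41 and 132 (-2.39). The members with the shared seed were thus all lower. miR-449a-5p was no longer past 4-fold under the other scalings (-1.87, -1.46 and -1.55) or against rabbit day 110 (-1.73), and miR-34b-5p not under edgeR's or DESeq2's scaling (-1.72 and -1.80) or against day 110 (-1.72). miR-34b-3p, from the other arm, had 3 reads in pig and 655 in rabbit (log2 ratio -8.47, interval -10.75 to -6.92). With 1 mismatch allowed outside the seed its log2 ratio was -1.86, so most of that difference was in the letters matched. The family's summed log2 ratio stayed between -3.38 and -2.45 under the 7 alternatives tried.

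**Figure D4:**
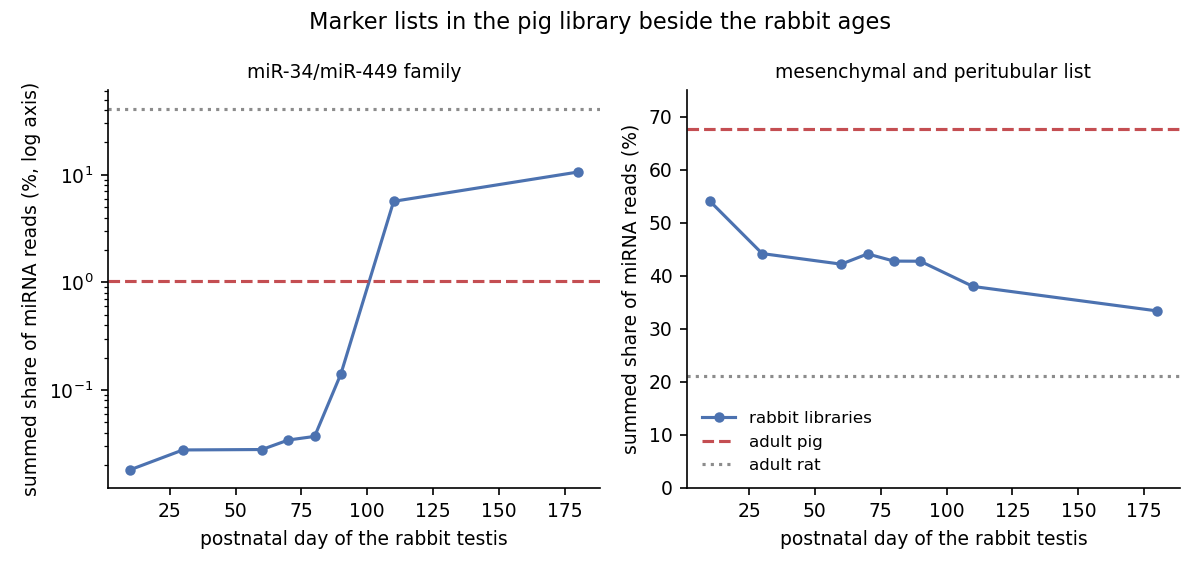
Summed share of miRNA reads (y axis, %) of the miR-34 and miR-449 family (left, log axis) and of the list of mesenchymal and peritubular cells (right, linear axis) in the 8 rabbit libraries by postnatal day (x axis, points), with the adult pig (dashed line) and the adult rat (dotted line). The pig line crosses the rabbit curve between days 90 (0.141%) and 110 (5.67%) on the left and lies above every rabbit point on the right (67.7% against 33.4% to 54.2%).

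Other miRNAs listed for late germ cells did not move together. Of 5 counted, 3 were above 0 and none passed 4-fold, with a median log2 ratio of 1.29 (2 passed it, upwards, with edgeR's or DESeq2's scaling). The sum of the whole list was lower in pig, at 1.498% and 4.20% of miRNA reads (log2 ratio -1.49). The sum followed miR-191-5p, a broadly expressed miRNA, with 16690 reads in pig and 30785 in rabbit (-1.58). miR-182-5p had 335 and 76 reads (1.44), and miR-183-5p, from the same cluster, 454 and 114 (1.29). Of the list of miRNAs of pluripotent and early germ cells, 1 was counted, miR-294-3p, with 0 reads in pig and 287 in rabbit. It was 155-fold lower with 0 set to a floor of 3 reads, a value that is not a lower bound. The X-linked miR-506 family, known from the testis, had 2 counted members, both lower. miR-741-3p had 107 reads in pig and 303 in rabbit (-2.20), and miR-871-3p 83 and 302 (-2.56), and neither was past 4-fold under edgeR's or DESeq2's scaling. As matched to mouse letters, the family was 0.0343% of miRNA reads in pig, 0.139% in rabbit and 1.27% in rat. Uncounted tags of 22 nt lay nearest miR-509-3p. One, 4 edits away, had 1491 reads in pig and 1 in rabbit. Others, 5 edits away, had 266, 244 and 233 reads in rabbit and 0 in pig. Whether these tags belong to the family was not tested.

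miRNAs listed for dividing cells, from the miR-17 and miR-106 clusters, were 0.791% of miRNA reads in pig and 2.17% in rabbit. All 11 counted members were below 0, or 9 of 11 under each other scaling, with a median log2 ratio of -1.31, and 2 passed 4-fold. One was miR-20b-5p, with 1 read in pig and 342 in rabbit (log2 ratio -9.12, interval -14.43 to -6.63), and the other miR-363-3p, with 107 and 720 (-3.45). miR-106b-3p, of the same clusters but outside the list, had 137 and 363 (-2.11), and was not past 4-fold under the other scalings. miR-92a-3p, the most abundant member, had 4420 and 5942 reads (-1.13). The summed share in the other rabbit libraries was 1.77% to 2.40%, so the pig value was below all of them. In mouse the share was 5.12% at the pachytene stage and 3.87% in round spermatids, which no longer divide. It was 1.33% to 1.91% from pre-leptotene to zygotene cells, 1.01% in mature sperm and 3.82% to 5.33% in cultured stem cells, knockout lines included. A high share is thus not particular to dividing cells in this series.

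miRNAs listed for stroma took a larger share in pig. Of the 12 counted members of the list for mesenchymal and peritubular cells, 10 were above 0. Their median log2 ratio was 1.11, with none past 4-fold (1 scaled to all reads, 2 with edgeR's or DESeq2's scaling). The 14 list members in the reference summed to 67.7% of miRNA reads in pig and 33.4% in rabbit, a 2.03-fold difference. The share was 38.0% at rabbit day 110, 54.2% at day 10 and 21.2% in rat. These miRNAs are not particular to stroma in this series, as the list was 27.1% of miRNA reads in mouse mature sperm and 3.69% to 12.1% in mouse spermatocytes and round spermatids. Besides miR-99a-5p (1.10) and miR-10b-5p (1.18), the list holds miR-21a-5p (1.32), miR-10a-5p (3823 and 1083 reads, 1.12), miR-22-3p (2924 and 476 reads, 1.92) and miR-199a-5p (12836 and 3540 reads, 1.16). miR-125b-5p went the other way, with 7004 and 8647 reads (-1.0). miR-100-5p, with the seed of miR-99a, had 44354 and 23902 reads (0.19), and miR-99b-5p, which is outside the list, 13272 and 22298 (-1.45), so miRNAs with this seed did not move together.

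Markers of other somatic cells mostly stayed within 4-fold. miR-202-5p, known from Sertoli cells and the gonad, had 15268 reads in pig (1.254% of miRNA reads) and 8424 in rabbit (1.12%), a log2 ratio of 0.16. With miR-204-5p (173 and 35 reads, 1.60, past 4-fold under edgeR's or DESeq2's scaling) its list summed to 1.27% and 1.13%, beside 1.19% at rabbit day 110 and 1.16% in rat. miR-126a-3p, of endothelium, was at 0.784% and 0.591% (0.41). The list of blood cell miRNAs, 3 of them counted, summed to 0.169% and 0.0897% (0.91). Among the counted ones miR-451a, of red cells, had 1088 and 355 reads (0.92), and miR-142a-5p, of white cells, 460 and 39 (2.86) and was past 4-fold. miR-499-5p, the only counted miRNA of muscle, had 388 and 518 reads (-1.12). The part of blood in these libraries was not tested.

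The summed share of miRNAs listed for epithelia was far lower in pig. Of 5 counted, 4 passed 4-fold, with a median log2 ratio of -3.53, and the list was 0.0418% of miRNA reads in pig and 0.736% in rabbit, a 17.6-fold difference. miR-200a-3p had 47 reads in pig and 4142 in rabbit (-7.16), and miR-200c-3p 0 and 686, 372-fold lower with 0 set to 3. miR-141-3p had 54 and 383 (-3.53) and miR-200b-3p 78 and 194 (-2.02), which was not past 4-fold under the other scalings. miR-203-3p, of skin and other layered epithelia, went the other way, with 325 and 109 reads (0.88). When the whole read had to equal the mouse sequence, the ratios of miR-200a-3p and miR-200b-3p turned positive (4.56 and 2.81). Their direction thus rests on counting reads that differ from the mouse sequence, in length or letters, after the first 18 nt. In rabbit the list was 0.0218% to 0.0502% at days 10 to 90 and 0.462% at day 110, and in rat 0.0311%. The pig value thus lay within the range of the young rabbit libraries and near the rat. In mouse, miR-200a-3p was 0.721% of miRNA reads in mature sperm, above its 0.553% in rabbit day 180, and 0.00258% in round spermatids. This miRNA was thus not found in whole tissue alone in this series. Whether pieces of duct or epididymis were in a sample was not tested.

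**Figure D5:**
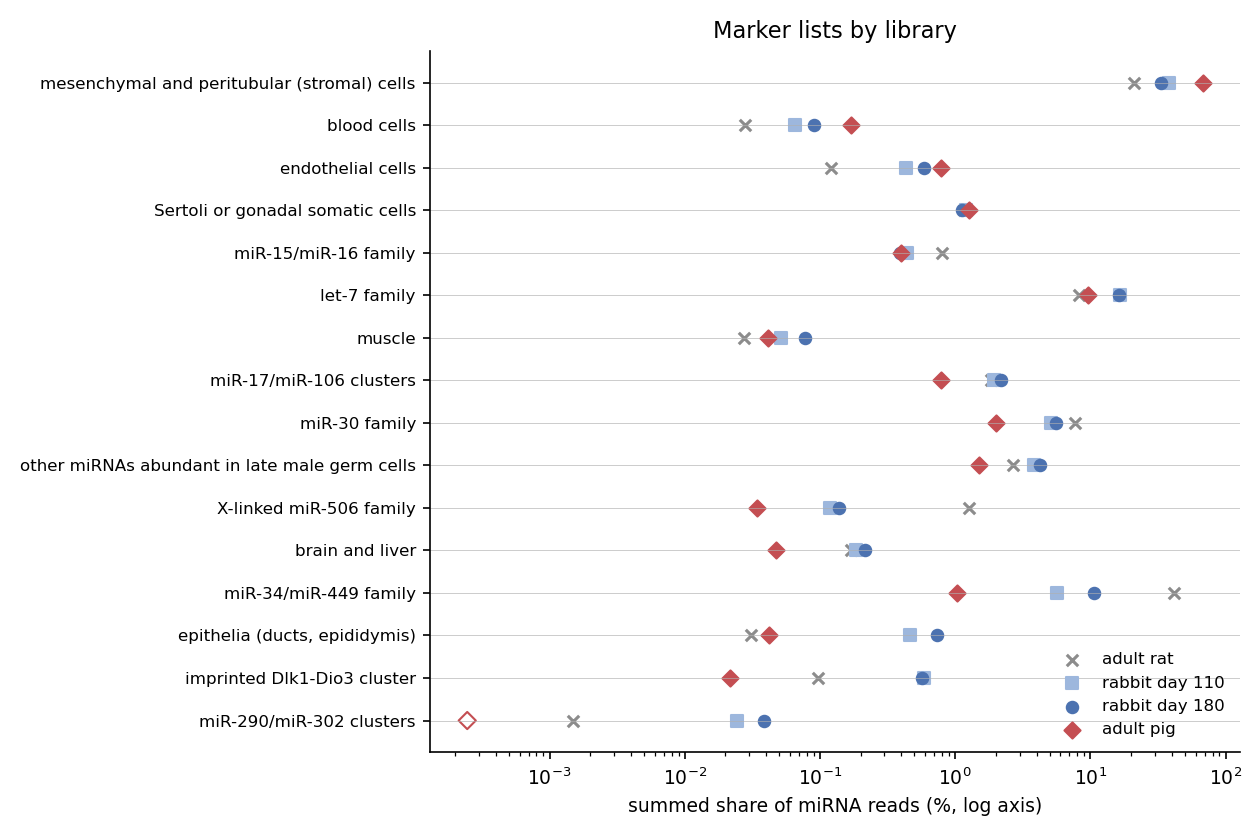
Summed share of miRNA reads (x axis, %, log) of the 16 marker lists (rows, ordered by the ratio of pig to rabbit day 180) in adult pig (diamonds), rabbit day 180 (circles), rabbit day 110 (squares) and adult rat (crosses); an open symbol is a sum of 0 drawn at the floor of 3 reads. The stromal list is at the top (67.7% in pig, 33.4% in rabbit), and the rabbit symbols of days 110 and 180 lie close together in most rows.

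The remaining lists fell on both sides. Of the 16 lists, 11 had a lower sum in pig and 5 a higher one, and 6 were at least 4-fold lower and 0 at least 4-fold higher. Of those 6, the brain and liver list was not past 4-fold scaled to all reads or by edgeR or DESeq2 (-1.92, -1.50 and -1.59). Nor was the X-linked miR-506 family (-1.76, -1.35 and -1.44). Over all 138 miRNAs, 84 were below 0 and 54 above, against 67 and 71 with edgeR's scaling. The list for the imprinted Dlk1-Dio3 cluster, summed over its 28 members in the reference, was at 0.0217% and 0.570% (log2 ratio -4.72). Its 3 counted miRNAs were all lower in pig, with a median log2 ratio of -5.26. miR-127-3p had 154 reads in pig and 3636 in rabbit (-5.26), miR-379-5p 0 and 325, 176-fold lower with 0 set to 3, and miR-411-5p 6 and 125 (-5.08). Outside the list, and chosen after their values were seen, miR-136-3p from the same stretch of mouse chromosome 12 had 14 and 168 reads (-4.29) and miR-409-5p 275 and 177 (-0.06), so not every counted miRNA of the cluster was lower by that much. The list of brain and liver miRNAs was at 0.0475% and 0.215% (-2.18, median -2.25, 2 of 3 past 4-fold, or 1 under the other scalings), in which miR-9-5p had 125 and 591 reads (-2.94) and miR-128-3p 263 and 770 (-2.25).

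let-7, a family that accumulates with differentiation, was 9.67% of miRNA reads in pig and 16.4% in rabbit (-0.76), with 2 of 8 members above 0, a median of -0.47 and none past 4-fold; with edgeR's scaling 6 of 8 were above 0 (median 0.21) and with DESeq2's 5 of 8 (0.12). let-7f-5p had 25456 and 43230 reads (-1.46), and the joined entry of let-7a and let-7c 44368 and 35208 (-0.37, above 0 under edgeR's or DESeq2's scaling). The miR-30 family was at 2.01% and 5.54% (-1.46), with all 5 members below 0, a median of -1.81 and 1, miR-30a-3p (-2.08), past 4-fold, though under none of the other scalings. The miR-15 and miR-16 family was level. Its sum was 0.398% and 0.387% (log2 ratio 0.04, interval -0.03 to 0.11), with a median of -0.27 over 7 members of which 3 were above 0 (4, with medians of 0.40 and 0.32, under edgeR's and DESeq2's scaling), and the sign of the sum turned with 1 mismatch allowed (-0.56) and against rabbit day 110 (-0.14).

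The lower side of the comparison included several abundant rabbit miRNAs outside the lists. miR-7a-5p, known from neuroendocrine cells, had 654 reads in pig and 6419 in rabbit (-4.00), and miR-501-3p 7 and 871 (-7.66). Of the 35 lower miRNAs, 6 had 0 reads in pig and 4 had 1 to 3. miR-147-5p had 0 and 275 reads, 149-fold lower with 0 set to 3, and miR-872-5p 3 and 251 (-7.09, interval -9.37 to -5.52). miR-16-2-3p had 1 and 103 (-7.39, interval -12.70 to -4.88). In mouse, 9 of the 35 lie on the X chromosome, as do 23 of all 138 counted. An absent miRNA in one species can be a changed sequence as well as a low level, and the 2 cannot be told apart by a mouse table.

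The higher side was short and of low abundance. miR-708-5p had 755 reads in pig and 17 in rabbit (4.77, interval 4.08 to 5.56), while miR-28a-5p, with the same seed, had 1308 and 416 (0.95). miR-362-5p had 335 and 4 (5.69), miR-22-5p 181 and 5 (4.48) and miR-221-5p 815 and 107 (2.23). miR-217-5p, known from the pancreas, had 154 and 2 (5.57, interval 3.69 to 8.62), and miR-504-5p 115 and 0, 23.6-fold higher with 0 set to 3. miR-142a-5p, given above, completes the 7. The next by size were miR-221-3p (2846 and 443 reads, 1.98), miR-195a-5p (1511 and 241, 1.95) and miR-374b-5p (1227 and 197, 1.94), which pass 4-fold under the 3 other scalings. miR-221-5p was not past 4-fold against rabbit day 110 (1.71).

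The ends of the miRNA reads differed slightly. Over 18 abundant miRNAs, the commonest length was the same in both libraries for 17, and the mean length was lower in pig for 18 of 18. miR-100-5p reads had a mean of 21.3 nt in pig and 21.6 nt in rabbit, and miR-30e-5p reads 22.6 and 23.5 nt. The median share of reads with another 5′ start was 0.683% in pig and 0.333% in rabbit, and it was higher in pig for 13 of the 18. For miR-202-5p it was 7.03% in pig and 0.177% in rabbit, and for miR-10b-5p 7.39% and 10.8%. The labels of both libraries call the tissue testes. Germ cell miRNAs (miR-34 and miR-449 family), the gonadal miR-202-5p and reads of piRNA size with a first T were present in both, in the amounts given above.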

How the data were processed

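Lists of read sequences with raw counts, 1 per library, were deposited by the authors; the counts are not normalised. Per the submitters' processing notes, Bowtie and the pig build Sscrofa10.2, rabbit build OryCun2.0, rat build Rnor_6.0 and mouse build GRCm38 are named, without roles; trimming is not given in the sources used here. Lengths run from 17 nt to 41 nt (51 nt in pig).

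miRNAs were counted from reads between 18 and 26 nt that start with the same 18 nt as a mouse entry (RefSeq, GRCm38.p6; 1669 entries after joining shared prefixes, 10 of them hairpin arms). The other reads were classed in turn by adapter end, 5.8S start, exact match to GENCODE vM21 small RNAs, and A box. The 5.8S start was set as the last 13 nt of the leading pig tag of 17 to 18 nt. Ratios used reads per 1000000 miRNA reads and at least 100 reads in either library, were called at 4-fold, and set a count of 0 to 3; intervals are exact (95%) and cover counting error only, since reads carry no molecular identifiers. Named were the 10 most abundant miRNAs of each library, the 10 largest differences each way, list members counted and the 5 leading tags of each class; other names were chosen after their values were seen, and not all that the rule allows are printed. Members and lists were chosen with earlier results of these data known. The 16 lists name 183 miRNAs, 157 of them in the reference. The sum of a list takes all its members in the reference, also those with too few reads to be counted singly. The design foresaw tRNA prefixes from the reference; none were there, and the A box replaced them. Alternatives are in the closing section. Classes and calls were run on simulated data as a check of the code alone. The simulated tags were made from the class rules themselves, and the simulated ratios held a scaling correction that the reported ones lack. Python 3.11.15, pandas 2.3.3, scipy 1.17.1, R 4.3.3, edgeR 4.0.16 and DESeq2 1.42.0 (size factors only, no test) were used.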

Additional observations from a re-analysis of the deposited data

How the results depend on the processing

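Of the 42 miRNAs past 4-fold, the count was 34 to 47 under the other matching rules, read windows, entry sets and scalings and against rabbit day 110. With whole reads the 34 were 20 higher and 14 lower, against 7 and 35 as reported. It was 103 with at least 10 reads and 7 with at least 1000, and 91 at 2-fold and 27 at 8-fold. The 2 called between rabbit days became 1 with whole reads, with the first 16 nt and without hairpin arms, 5 with at least 10 reads, 4 at 2-fold and 0 at 8-fold. Over 98 named miRNAs, 1149 values gave 1059 that kept their call or lack of one, 52 that lost a call, 34 that gained one and 4 that reversed, all with whole reads: the 5′ arm of Mir532 (7.45), miR-18a-5p (2.16), miR-200a-3p (4.56) and miR-200b-3p (2.81). In all, 16 of the 42 lost the call somewhere. Of 112 list values 2 reversed, both for the miR-15 and miR-16 family (-0.56 with 1 mismatch, -0.14 against day 110). The causes were not tested.

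The pig to rabbit ratios of shares kept their side of 1 except that for miRNAs against day 110. In the order distinct sequences, reads of 19 nt and longer as denominator, day 110, no adapter ends, 41 nt and shorter, no 5.8S reads, the ratio for miRNAs was 2.05, 1.45, 0.871 (reversed), 1.21, 1.21 and 1.34 (1.198 as reported). For 17 to 18 nt it was 2.97, 14.3, 10.17, 11.8, 11.8 and 9.25 (11.8), and for 25 to 32 nt 0.637, 0.409, 0.363, 0.334, 0.338 and 0.372 (0.336), with 0.335 at 26 to 32 nt and 0.438 at 24 to 33 nt. For tRNA fragments it was 4.82, 2.04, 1.496, 1.76, 1.75 and 1.95 (1.74), with 1.48 at 28 to 36 nt. For a first T it was 0.939, 0.664, 0.654 and 0.655 with distinct sequences, day 110, no adapter ends and no 5.8S reads (0.651), and 0.943 without named RNAs. For rRNA it was 6.43, 13.2, 12.01 and 10.3 with distinct sequences, reads of 19 nt and longer, day 110 and no 5.8S reads (16.8), and 16.02 with 1 mismatch.

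The start shift, hairpin arm, rat, length and 5.8S alternatives, and 4 of those for lists, were chosen after seeing the data. Not run were pig and rabbit miRNA tables, tRNA prefixes of 16 nt and leaving out a replicate, as there was 1 library a side. No paired analysis was possible because each group is 1 library. A library of this depth does not show how animals differ.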
